A study of Arabidopsis thaliana with 7 samples.

Results

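The genes described here are 10 components of the Arabidopsis circadian clock and its photoperiod branch that are counted among the evening-phased genes: TOC1, PRR5 and PRR3, the evening complex genes ELF3, ELF4, LUX and BOA, and GI, FKF1 and ZTL. They were picked by name, with no threshold on their values, but with earlier results of these data known. All 10 of them stand among the 21184 genes of the deposited expression table, and 7 of the 10 carried enough reads to enter the test of 13301 genes. RNA sequencing measured polyadenylated transcripts of whole seedlings at an age of 5 days. The wild type, Col-0, was compared with tt4-11, which the labels call a null mutant of chalcone synthase, the enzyme that opens the flavonoid pathway. Both genotypes were grown alike, on medium with 2% sucrose at 22 °C, with no dark period (24 h of light a day at about 100 µE). There were 4 libraries of Col-0, numbered 1 to 4, and 3 of tt4-11, numbered 2 to 4.

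The plant clock is a network of repressors that act in turn through the day. CCA1 and LHY, made around dawn, bind a short promoter sequence named the evening element and hold evening genes down. TOC1 and the other pseudo-response regulators repress CCA1 and LHY in return, and the evening complex of ELF3, ELF4 and LUX represses growth and clock genes at night. GI is a large scaffold protein that joins the blue-light receptors FKF1 and ZTL, F-box proteins that mark other proteins for degradation. FKF1 acts on the repressors of the flowering regulator CO, and ZTL acts on TOC1 and PRR5. ZTL is a known exception within the group, since its protein cycles while its transcript hardly does.

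The sources used here do not give the time of day of the harvest, and 1 age was sampled, so the phase of these genes could not be checked in these data. Whether the libraries came from separate cultures is not in the labels, so p-values here speak only of the spread among these libraries. In whole seedlings, fewer cells that use a gene and less RNA per cell cannot be told apart.

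The evening element has the letters AAAATATCT, or AGATATTTT when it lies on the other strand. In the RefSeq annotation of the TAIR10.1 build, 5 of the 10 genes (TOC1, LUX, BOA, PRR5 and FKF1) carried it, on either strand, in the 300 bases before the annotated gene start. Of 27443 protein-coding genes 2.79% did. Within 1000 bases GI and ELF4 joined them, which made 7 of 10, against 7.24% of all. These letters were not in that window of ELF3, PRR3 or ZTL, which says nothing about what binds there. The copy nearest to the start is shown for each of the 7 genes with 25 bases on both sides. The element was chosen because morning regulators are known to reach evening genes through it. Whether they do so at these copies was not tested. All are written 5′ to 3′ on the strand of the gene, with the evening element in capitals.
TOC1: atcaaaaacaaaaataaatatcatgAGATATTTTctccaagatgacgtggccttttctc
PRR5: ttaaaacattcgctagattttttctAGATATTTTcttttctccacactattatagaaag
LUX: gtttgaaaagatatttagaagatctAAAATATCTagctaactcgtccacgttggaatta
BOA: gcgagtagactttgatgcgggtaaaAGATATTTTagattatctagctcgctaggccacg
FKF1: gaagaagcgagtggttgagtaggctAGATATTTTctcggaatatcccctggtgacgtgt
GI: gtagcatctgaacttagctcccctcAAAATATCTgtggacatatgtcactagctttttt
ELF4: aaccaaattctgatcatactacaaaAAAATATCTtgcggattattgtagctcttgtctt

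These stretches lie in TAIR10.1 at chr5:24674787-24674845 (TOC1, plus strand), chr5:8358700-8358758 (PRR5, minus strand), chr3:17182964-17183022 (LUX, plus), chr5:24003820-24003878 (BOA, plus), chr1:25508428-25508486 (FKF1, plus), chr1:8061135-8061193 (GI, plus) and chr2:16735456-16735514 (ELF4, minus). The nearest copy ended 143 bases before the annotated start in TOC1, 179 in PRR5, 45 in LUX, 35 in BOA and 178 in FKF1, but 583 in GI and 528 in ELF4. Within 1000 bases GI and PRR5 each held 3 copies and FKF1 held 2. The related CCA1-binding site AAAAATCT, searched on both strands, was present within 300 bases in PRR5 alone, at 191 to 198 bases before the start and so just beyond its evening element, against 7.94% of all genes. The G-box CACGTG stood in the same window of LUX and BOA (7.09% of all genes). A site bound by LUX, GATACG, stood in that of ELF4 and ELF3 (5.51%), and its variant GATTCG in none of the 10 (9.34%). These matches are a description of letters in the reference genome, and binding was not measured.

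The recovered reads numbered 2021368 to 2205449 in each library, a small number that limits how far low genes can be read. These are the reads counted for the deposited transcript models and need not equal the sequencing depth. TT4, the chalcone synthase gene, kept 2.50% of its Col-0 level in tt4-11, from 2797 ± 330 (SD, n = 4) to 69.9 ± 23.3 (SD, n = 3) scaled reads, so the genotype labels held. Col-0 replicate 1 was the farthest out on the first principal component (43.4, with the other Col-0 libraries at 10.4 to 18.2). On the second component Col-0 replicates 1 and 4 lay at opposite ends (26.1 and -23.3). Without Col-0 replicate 1, TOC1, GI, ELF4, BOA, PRR5 and FKF1 were still called lower, with adjusted p-values from limma up to 0.0129, and over all 7 libraries left out in turn these reached 0.0418. Summed levels of 6 shoot markers were 17374 to 19661 scaled reads in Col-0 and 14559 to 17752 in tt4-11, with 1 of 5 tested higher and 2 lower. Those of 6 root markers were 12181 to 13399 and 10091 to 13113, with none of 5 tested called. Most of the root sum was PYK10, with means of 12364 in Col-0 and 11346 in tt4-11. In 2 of the 5, COBL9 (68.6% of Col-0) and EXPA7 (53.0%), all tt4-11 libraries were below all Col-0 libraries. In 0 of the 5 were they all above, where the shares of all genes tested were 12.9% below and 13.7% above. The 5 seed storage markers summed to 37.0 to 276 in Col-0 and 122 to 800 in tt4-11, with 2 of 3 tested higher. Of 11 genes that respond rapidly to cold, touch or wounding, 9 were tested and all 9 were called higher. Summed over all 11, these held 174 to 441 scaled reads in Col-0 and 972 to 1149 in tt4-11. Beside all these marker counts, the shares over all 13301 genes tested were 7.07% higher and 6.55% lower. The marker lists were chosen with earlier results of these data known, so these counts are no separate evidence. No marker was at 0 in all libraries. The part of these markers in the results below was not tested.

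Of the 7 evening genes tested, 6 were lower in tt4-11 and none was higher (limma with Benjamini-Hochberg adjustment over 13301 genes, adjusted p under 0.05). Among all genes tested 6.55% were called lower and 7.07% higher. In FKF1, ELF4, GI, BOA, PRR5 and TOC1 all tt4-11 libraries were lower than all Col-0 libraries, which was true of 12.9% of all genes tested. The median change of the 7 genes was -1.10 on the log2 scale, where the median of all genes was -0.01. ELF3 did not pass, and LUX, PRR3 and ZTL had too few reads to test. Changes are tt4-11 minus Col-0 in log2(scaled reads + 1), a scale that understates the change of low genes. The exact two-sided permutation p was 0.0571 for each of the 6 separated genes, the smallest that 4 against 3 libraries allow.

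**Figure D1:**
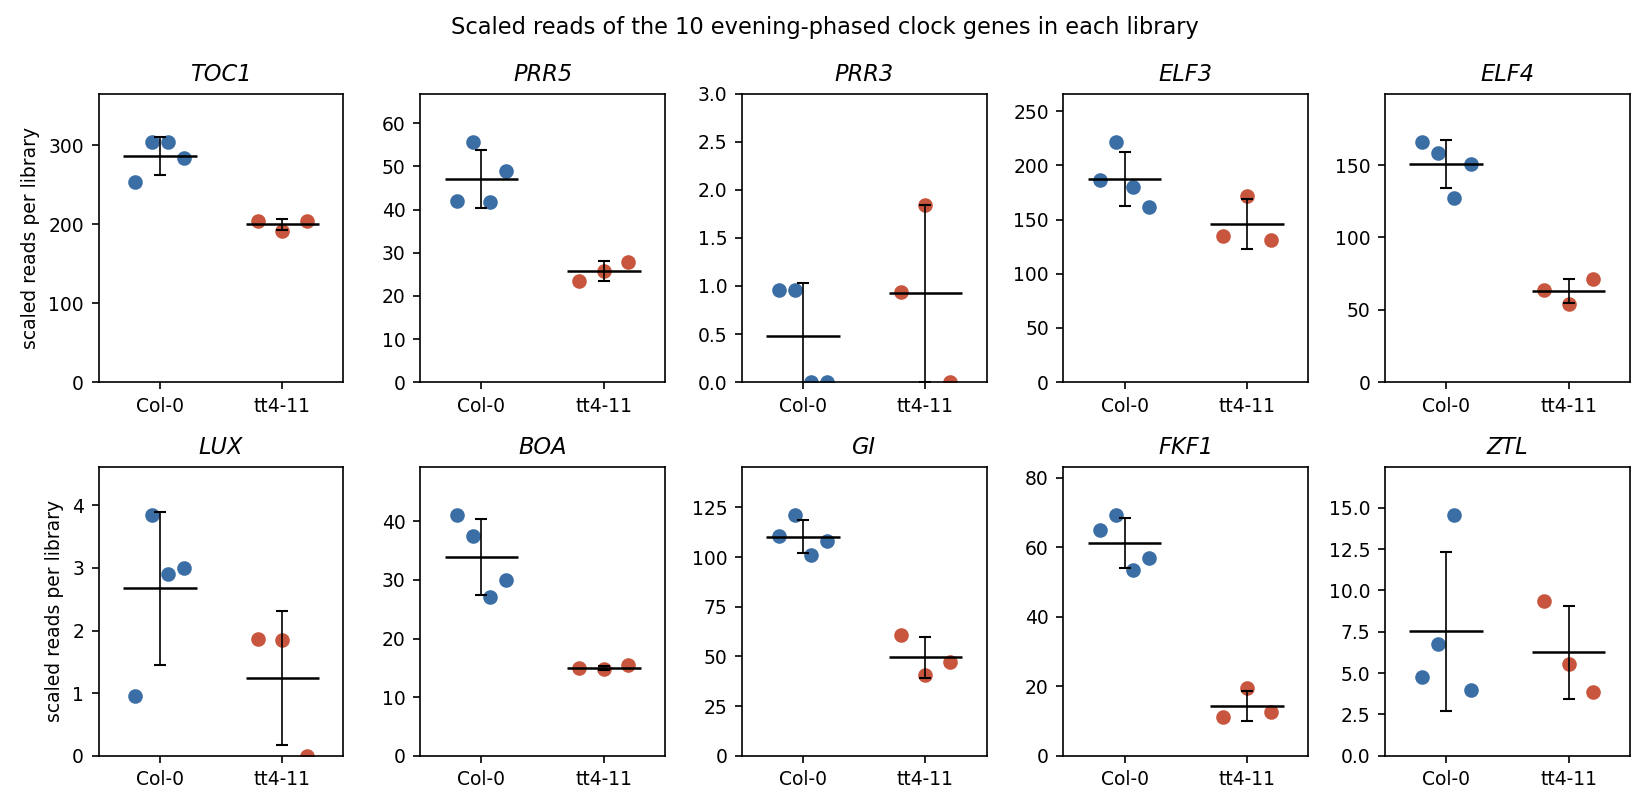
Scaled reads of the 10 evening-phased genes in each library, one panel per gene with its own linear axis from 0. Points are libraries (Col-0 on the left, n = 4; tt4-11 on the right, n = 3) horizontal lines give the mean and vertical bars ± 1 SD; in FKF1, ELF4, GI, BOA, PRR5 and TOC1 all tt4-11 points lie under all Col-0 points, and LUX, PRR3 and ZTL stay under 15 scaled reads.

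FKF1 encodes a blue-light receptor that reads day length together with GI. FKF1 (AT1G68050) is annotated in TAIR10.1 on chromosome 1 at 25508639 to 25510907 on the plus strand, with 2 exons. In library order, Col-0 held 65.0, 69.2, 53.4 and 57.0 scaled reads of it, and tt4-11 held 11.2, 19.3 and 12.5. The lowest Col-0 library was well above the highest tt4-11 library. Mean FKF1 dropped from 61.1 ± 7.23 to 14.4 ± 4.35 (SD, n = 4 and 3), which left 23.5%. On the log2 scale FKF1 fell by 2.04 (SE 0.22, 95% interval -2.52 to -1.57; limma with Benjamini-Hochberg adjustment, adjusted p = 2.36e-05). Ranked by size of fall, it was the 9th of 13301 genes. Because it had the lowest remaining share of the 7 genes tested, the 300 bases before its start (chr1:25508339-25508638, plus strand) are shown, with the evening element in capitals.
FKF1 upstream: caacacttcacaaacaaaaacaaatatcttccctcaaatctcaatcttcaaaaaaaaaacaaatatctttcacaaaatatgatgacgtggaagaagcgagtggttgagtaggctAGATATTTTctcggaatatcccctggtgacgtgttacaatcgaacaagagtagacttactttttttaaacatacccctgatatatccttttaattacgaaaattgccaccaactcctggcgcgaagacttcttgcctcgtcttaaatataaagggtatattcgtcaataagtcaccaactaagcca

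GI (AT1G22770), the partner of FKF1, lies on chromosome 1 at 8061751 to 8067790 (plus strand, 14 exons). The Col-0 libraries held 111, 121, 101 and 108 scaled reads of GI, and the tt4-11 libraries 60.8, 40.5 and 47.2. All tt4-11 values were far under the lowest Col-0 value, and tt4-11 replicate 2 was the highest of its group. The mean went from 110 ± 8.37 to 49.5 ± 10.4 (SD, n = 4 and 3), or 44.9% of Col-0. GI fell by 1.16 on the log2 scale (SE 0.16, 95% interval -1.50 to -0.82; limma with Benjamini-Hochberg adjustment, adjusted p = 0.000268).

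ZTL (AT5G57360), the relative of FKF1 that targets TOC1 and PRR5 (chromosome 5, 23241320 to 23244590, plus strand), was too low to test. Its recovered reads were 5, 7, 15 and 4 in Col-0 and 10, 6 and 4 in tt4-11, and the groups overlapped. Pooled within groups these were 31 reads against 20, a rate ratio of 0.841 with a 95% interval of 0.454 to 1.52 that covers counting error only. The ratio of FKF1 to ZTL, on the log2 scale, was 3.01 ± 0.82 in Col-0 and 1.12 ± 0.77 in tt4-11 (SD, n = 4 and 3), a difference of -1.89. The ratios of the groups did not overlap. An exact permutation test (two-sided) gave p = 0.0571, the lowest value possible with 4 against 3 libraries, or 0.143 adjusted over the 5 pairs of related genes compared, so this test could not pass 0.05 for any pair.

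In the evening complex, ELF4 (AT2G40080) encodes a small protein that binds ELF3 and is needed for sustained rhythms. ELF4 has 1 exon, on chromosome 2 at 16734294 to 16734953 (minus strand). Its Col-0 libraries stood at 166, 159, 127 and 151 scaled reads, and the tt4-11 libraries at 63.6, 54.3 and 71.3. The highest tt4-11 library was far under the lowest from Col-0. The means were 151 ± 16.9 and 63.1 ± 8.49 (SD, n = 4 and 3), which left 41.8%. On the log2 scale its change was -1.25 (SE 0.15, 95% interval -1.55 to -0.94; limma with Benjamini-Hochberg adjustment, adjusted p = 5.04e-05).

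ELF3 (AT2G25930), the scaffold of the complex (chromosome 2, 11058944 to 11063324, plus strand, 4 exons), was measured at 186, 222, 181 and 162 scaled reads in Col-0 and at 135, 172 and 131 in tt4-11. Here the groups overlapped, since tt4-11 replicate 3 exceeded Col-0 replicate 4. The means were 188 ± 25.1 and 146 ± 22.8 (SD, n = 4 and 3). The change of -0.36 (SE 0.14, 95% interval -0.66 to -0.07) did not pass (limma with Benjamini-Hochberg adjustment, adjusted p = 0.0931). With a trend of change on transcript length removed it was -0.46 and passed, at an adjusted p of 0.0424. An antisense RNA gene overlaps ELF3 by 183 bases, and the sources used here do not say whether counting used strand.

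The ELF4 to ELF3 ratio (log2) was -0.31 ± 0.21 in Col-0 and -1.20 ± 0.40 in tt4-11 (SD, n = 4 and 3). The difference of -0.88 separated the libraries of the groups fully, with an exact two-sided permutation p of 0.0571 (0.143 adjusted over 5 pairs).

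BOA (AT5G59570), also called NOX, encodes a DNA-binding protein close to LUX and lies on chromosome 5 at 24003888 to 24007844 (plus strand). The scaled reads of BOA were 41.1, 37.5, 27.2 and 30.0 in Col-0 against 15.0, 14.7 and 15.4 in tt4-11. The Col-0 libraries were spread and the tt4-11 libraries lay close together, well below them. The mean fell from 33.9 ± 6.45 to 15.0 ± 0.344 (SD, n = 4 and 3), to 44.3% of Col-0. The log2 change was -1.10 (SE 0.23, 95% interval -1.60 to -0.61; limma with Benjamini-Hochberg adjustment, adjusted p = 0.00582). A gene on the opposite strand, AT5G59580, overlaps BOA by 1896 bases, and its own rows held 4 reads in all of Col-0 and 1 in all of tt4-11.

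LUX (AT3G46640), the DNA-binding subunit of the complex (chromosome 3, 17183042 to 17186959, plus strand), had 1, 4, 3 and 3 recovered reads in Col-0 and 2, 2 and 0 in tt4-11, summed over its 3 transcript models. That is 11 reads against 4, a rate ratio of 0.474 with a 95% counting interval of 0.110 to 1.60. A change of LUX was therefore not detectable at so few reads, in either direction. AT3G46650, on the opposite strand, overlaps LUX by 1507 bases and had 26 reads in Col-0 and 14 in tt4-11, more than LUX itself, so the few LUX reads are uncertain. The BOA to LUX ratio differed between genotypes by -0.31 on the log2 scale (exact two-sided permutation p = 0.629, 0.629 adjusted over 5 pairs), and its sign depended on the pseudocount.

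Among the pseudo-response regulators, TOC1 (AT5G61380) is the evening repressor of CCA1. It lies on chromosome 5 at 24674963 to 24678550 (plus strand, 6 exons). Scaled reads of TOC1 were 253, 305, 304 and 284 in Col-0, and 204, 191 and 204 in tt4-11. The highest tt4-11 library was below the lowest Col-0 library. TOC1 kept 69.8% of its Col-0 level, with means of 286 ± 24.1 and 200 ± 7.26 (SD, n = 4 and 3). The log2 change was -0.51 (SE 0.11, 95% interval -0.75 to -0.28; limma with Benjamini-Hochberg adjustment, adjusted p = 0.00668).

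PRR5 (AT5G24470), a repressor that acts shortly before TOC1 and is, like TOC1, a target of ZTL, lies on chromosome 5 at 8356204 to 8358546 (minus strand, 6 exons). PRR5 had 42.0, 55.7, 41.7 and 49.0 scaled reads in Col-0 and 23.4, 25.8 and 27.9 in tt4-11. Every tt4-11 library was under the lowest Col-0 library. The means were 47.1 ± 6.66 and 25.7 ± 2.27 (SD, n = 4 and 3), or 54.5% of Col-0. PRR5 fell by 0.84 on the log2 scale (SE 0.19, 95% interval -1.25 to -0.43; limma with Benjamini-Hochberg adjustment, adjusted p = 0.00956). Its ratio to TOC1 was -2.58 ± 0.18 in Col-0 and -2.91 ± 0.14 in tt4-11 on the log2 scale (SD, n = 4 and 3), a difference of -0.33 with an exact two-sided permutation p of 0.114 (0.190 adjusted over 5 pairs). The ratios overlapped between the groups.

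PRR3 (AT5G60100), which is known to protect TOC1 from ZTL (chromosome 5, 24197971 to 24201415, minus strand), had recovered reads of 1, 1, 0 and 0 in Col-0 and 1, 2 and 0 in tt4-11. The table rows hold 1 of its 7 annotated transcripts. With 2 reads against 3, the rate ratio was 1.96 with a 95% counting interval of 0.224 to 23.4. The PRR3 to TOC1 ratio differed by 0.85 on the log2 scale (exact two-sided permutation p = 0.229, 0.286 adjusted over 5 pairs), and at so few reads neither its size nor its direction could be read.

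**Figure D2:**
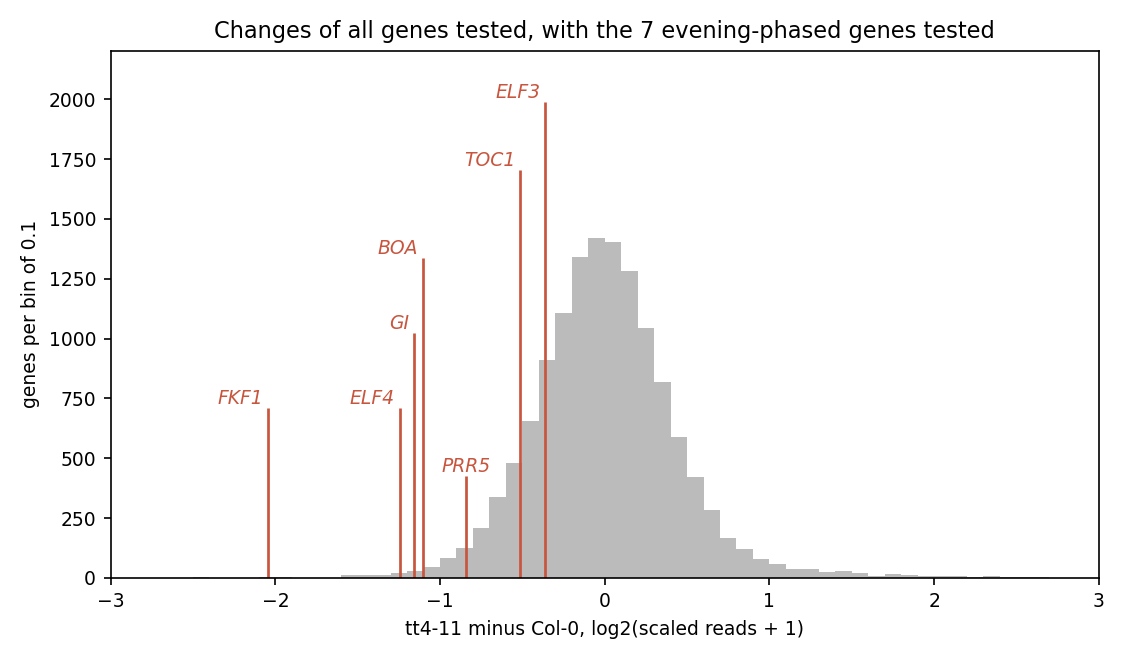
Histogram of the log2 changes (tt4-11 minus Col-0) of the 13301 genes tested, in bins of 0.1, with a line for each of the 7 evening-phased genes tested. The axis runs from -3 to 3, so TT4 at -5.34 and the few rises above 3 are not drawn. The line heights only keep the names apart; FKF1 lies at -2.04, ELF4, GI and BOA between -1.25 and -1.10, and PRR5, TOC1 and ELF3 nearer to the median of all genes at -0.01.

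The estimated changes of the 7 genes differed in size, and the differences were tested only for the pairs named above. The interval of FKF1 (-2.52 to -1.57) reached the largest falls. Those of ELF4, GI, BOA and PRR5 overlapped each other, and those of PRR5, TOC1 and ELF3 overlapped at the shallow end. The interval of BOA (-1.60 to -0.61) overlapped those of all the others, FKF1 included. In rank of fall among 13301 genes, FKF1 was followed by ELF4 at 53, GI at 79, BOA at 93, PRR5 at 289, TOC1 at 1302 and ELF3 at 2349. In a table of the authors' own comparison the order was the same from FKF1 to ELF3. The authors' deposited table gives FKF1 -1.62, ELF4 -1.14, GI -1.02, BOA -0.86, PRR5 -0.70, TOC1 -0.49 and ELF3 -0.33 on the log2 scale. By its adjusted p-values the authors' deposited table also has 6 of the 10 genes under 0.05, with ELF3 at 0.159.

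Levels were compared between genes per kilobase of the longest annotated transcript. In Col-0 the order began with ELF4 at 244 ± 27.3 scaled reads per kb, TOC1 at 102 ± 8.60 and ELF3 at 68.3 ± 9.14 (SD, n = 4). FKF1 (28.2 ± 3.34), PRR5 (28.1 ± 3.97) and GI (25.6 ± 1.95) followed, and in that trio neighbouring genes had overlapping ranges. BOA stood at 11.7 ± 2.22, ZTL at 3.08 ± 1.98, LUX at 0.826 ± 0.377 and PRR3 at 0.176 ± 0.203 scaled reads per kb, the last pair with overlapping ranges. In tt4-11 FKF1, at 6.62 ± 2.01 (SD, n = 3) per kb, stood below PRR5 (15.3 ± 1.35) and GI (11.5 ± 2.41), and ELF4 at 102 ± 13.7 remained above TOC1 at 71.2 ± 2.59. The low places of ZTL, LUX and PRR3 need care. Genes with several annotated transcripts carry fewer reads in this table, with a median of 9.64 scaled reads over 9335 genes against 37.0 over 11619 genes with 1. ZTL has 2 annotated transcripts, LUX 3 and PRR3 7, and of the evening genes tested BOA alone has more than 1.

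**Figure D3:**
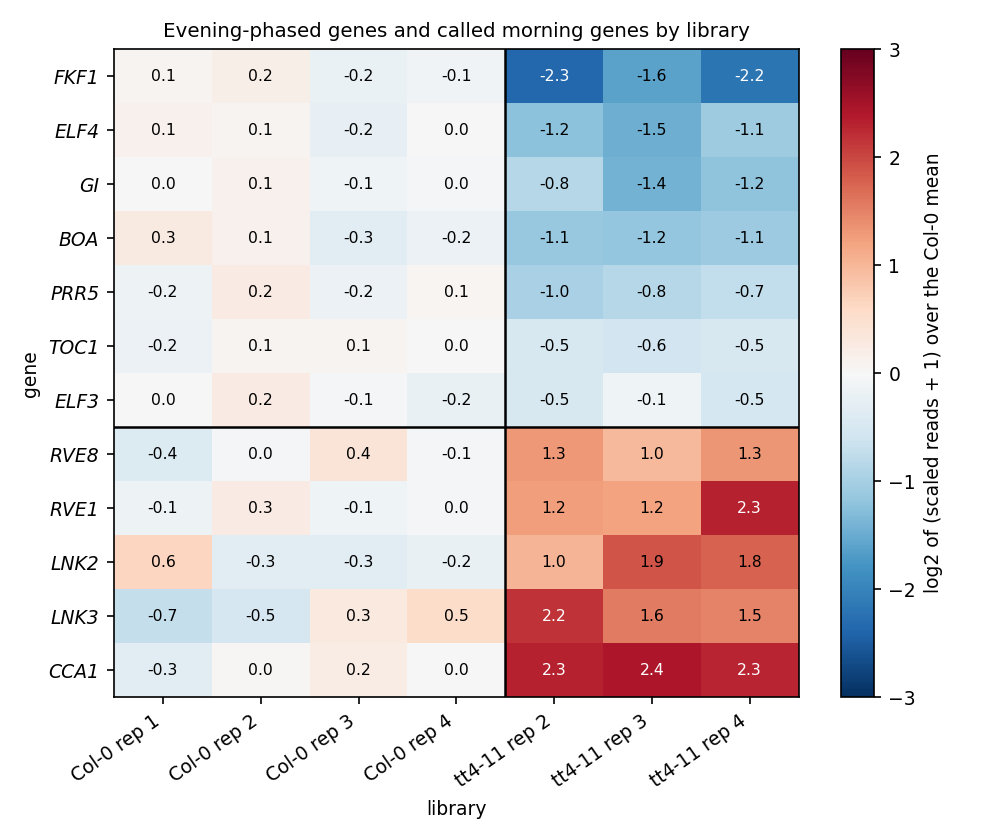
Each library's log2(scaled reads + 1) minus the log2 of the gene's Col-0 mean of (scaled reads + 1). Rows are the 7 evening-phased genes tested and the called genes of the other clock genes. Columns are the 4 Col-0 and 3 tt4-11 libraries, and colour and printed values give the same difference; the evening genes are below 0 and the morning genes above 0 in all tt4-11 columns.

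In Col-0, replicate 2 held the highest value of 5 of the 7 tested evening genes and replicate 3 the lowest of 5. Over all 13301 genes tested, 21.5% were highest in Col-0 replicate 2 and 21.7% lowest in replicate 3. In tt4-11 the highest value was in replicate 4 for 4 genes (35.9% of all genes) and the lowest in replicate 3 for 4 (33.2%). These counts are a description with no test. The ratio of CCA1 to TOC1, the opposed pair of morning and evening, was 0.121, 0.129, 0.147 and 0.134 in Col-0 and 0.940, 1.096 and 0.934 in tt4-11. No value came near the other group, with a mean of 0.133 ± 0.0109 (SD, n = 4) against 0.990 ± 0.0918 (SD, n = 3). For FKF1 the mean CCA1 ratio went from 0.636 ± 0.156 to 14.4 ± 3.20, and for ELF4 from 0.259 ± 0.0690 to 3.18 ± 0.612 (SD, n = 4 and 3). These ratios share the CCA1 reads, so they are not separate evidence. CCA1 has 3 annotated transcripts, of which the table rows hold 2, so the size of these ratios needs care.

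CCA1 belongs to a list of 29 other clock genes, of which 26 are in the table rows used here and 15 were tested. Of the 15, 5 were called higher in tt4-11, none lower, and 10 did not pass, with a median change of 0.04 where all genes had -0.01. The shares over all genes tested were 7.07% higher and 6.55% lower. This list too was chosen with earlier results of these data known. The 5 were CCA1, its relatives RVE8 and RVE1, and the coactivators LNK2 and LNK3. All 5 have several annotated transcripts. The table rows hold 2 of 3 for CCA1, 2 of 9 for RVE8 and 1 of 2 for RVE1. For LNK2 they hold 3 of 8 and for LNK3 1 of 3. Their levels therefore need the same care as those of ZTL, LUX and PRR3. CCA1, the dawn repressor of evening genes, had 30.6, 39.4, 44.6 and 38.0 scaled reads in Col-0 and 192, 210 and 191 in tt4-11, without overlap. The means of CCA1 were 38.2 ± 5.81 and 197 ± 10.8 (SD, n = 4 and 3), a log2 change of 2.35 (SE 0.16, adjusted p = 3.63e-07 by limma with Benjamini-Hochberg adjustment). LNK3 changed by 1.84 (SE 0.29), LNK2 by 1.62 (SE 0.28) and RVE1, which links the clock to auxin, by 1.60 (SE 0.22). RVE8, an activator of evening genes through the evening element, changed by 1.23, from 29.4 ± 6.98 to 69.3 ± 9.03 (SE 0.21, SD, n = 4 and 3; limma with Benjamini-Hochberg adjustment, adjusted p = 0.00128). LHY, the close relative of CCA1, had 3 recovered reads in Col-0 and 5 in tt4-11 and could not be read. For LHY the table rows hold 1 of 8 annotated transcripts.

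**Figure D4:**
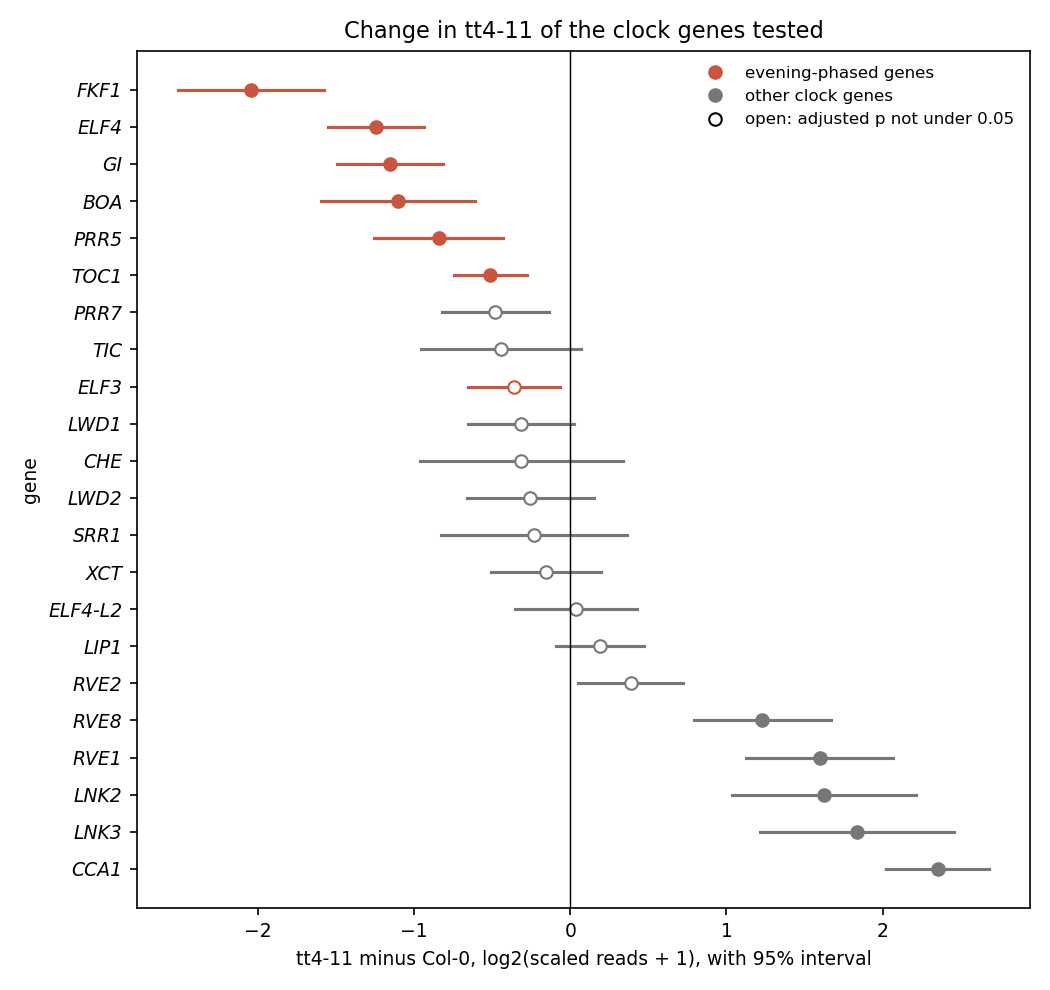
Log2 changes (tt4-11 minus Col-0) with 95% intervals for the evening-phased genes and the other clock genes tested. Filled points passed an adjusted p of 0.05 in limma; the 6 called evening genes lie left of 0 and the 5 called other clock genes, CCA1, LNK3, LNK2, RVE1 and RVE8, right of 0.

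Several close relatives of the evening genes were measured too. PRR7, the daytime pseudo-response regulator, changed by -0.48 (SE 0.16) and did not pass (limma with Benjamini-Hochberg adjustment, adjusted p = 0.0595). Without Col-0 replicate 2 PRR7 passed at 0.0435, and with the length trend removed at 0.0249. ELF4-L2, a relative of ELF4, stood at 46.2 ± 7.17 scaled reads in Col-0 and 47.0 ± 3.89 in tt4-11 (SD, n = 4 and 3), a change of 0.04 with a 95% interval of -0.35 to 0.43. LKP2, the third member of the ZTL family, was too low to test, at 4.86 ± 0.776 and 3.16 ± 2.01 scaled reads (SD, n = 4 and 3).

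Of 15 partners and targets of these proteins, 13 are in the table rows and 9 were tested, with 1 called higher, 1 called lower, 7 not called and a median change of 0.20. That is 1 of 9 each way, where 7.07% of all genes tested were called higher and 6.55% lower. CDF5, a DOF repressor of CO that belongs to the family degraded through FKF1, had 8.60, 6.73, 7.76 and 11.0 scaled reads in Col-0 and 20.6, 18.4 and 24.1 in tt4-11. Its groups did not overlap, and it rose by 1.22 on the log2 scale (SE 0.30, adjusted p = 0.0140 by limma with Benjamini-Hochberg adjustment). It no longer passed when tt4-11 replicate 2 (adjusted p = 0.0541 by limma) or replicate 4 (0.0825) was left out. CDF1 changed by 0.72 (SE 0.28) and CDF3 by 0.28 (SE 0.20), neither of them called. ASK1, an adaptor that ties F-box proteins such as FKF1 and ZTL to the ubiquitin ligase, fell from 748 ± 42.3 to 470 ± 39.7 scaled reads (SD, n = 4 and 3). The log2 change of ASK1 was -0.67 (SE 0.10, adjusted p = 0.000496 by limma with Benjamini-Hochberg adjustment). CO, the flowering regulator downstream of FKF1 and GI, had at most 1.87 scaled reads in any library.

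**Figure D5:**
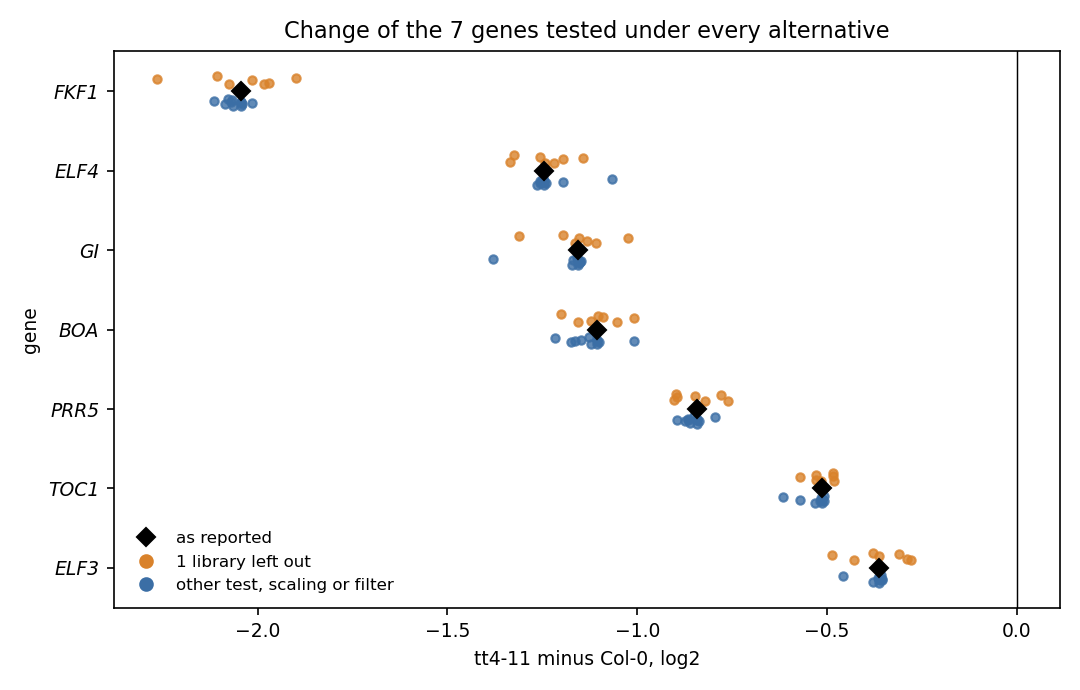
Log2 change (tt4-11 minus Col-0) of each of the 7 tested evening-phased genes as reported (black diamond) and under 18 alternatives, with orange points for 1 library left out and blue points for another test, scaling or filter. All points lie below 0; the falls of FKF1 stay between -2.27 and -1.90 and those of TOC1 between -0.62 and -0.48.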

How the data were processed

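Per the labels, RNA of 7 seedling samples went through a stranded polyA library kit and was sequenced as single reads of 100 bases. The submitters' processing notes name TopHat2, HISAT2, HTSeq and DESeq2, with no versions; the genome build was not given in the sources used here. In all, the deposited table has 23052 rows, of which 1 repeated row was dropped, which left 23051 transcript models of 21184 genes. Its deposited count column (Col-0 replicate 4) holds whole reads, and its other deposited columns are signal values, which are counts the authors scaled per library. Dividing these by their step gave whole reads in all values within a tolerance of 0.01, so the reads counted in each library were known. The deposited p-value columns, log2 changes and their score (change divided by its error) are the authors' own and served as a comparison.

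Models were summed per gene, then transformed to log2(value + 1). After filtering with filterByExpr (minimum count 10) genes were fitted in limma 3.58.1 with a trend (R 4.3.3), tt4-11 against Col-0, with no covariate, and called at a two-sided Benjamini-Hochberg adjusted p of 0.05 over 13301 genes. Genes with too few reads got exact 95% intervals of pooled reads, and 5 ratios of related genes got exact permutation tests (SciPy 1.17.1). Intervals cover counting error only. Alternatives used edgeR 4.0.16, DESeq2 1.42.0 and limma-voom on recovered reads, other scaling factors, filters and pseudocount, each library left out, a replicate block, removal of a length trend and models as deposited. Positions and sequences are from RefSeq's TAIR10.1, which may not be the authors' build, and genes were matched by locus identifier. Named genes are all 10 evening genes, TT4, and called members of the other lists, up to 6 by lowest p, with relatives of the evening genes added for their role. The genes and lists were chosen with earlier results of these data known. The labels speak of 4 tt4-11 libraries, and replicate 1 was not analysed here.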

Additional observations from a re-analysis of the deposited data

Results flagged for a closer look

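The log2 ratio of BOA to LUX was 4.43 in Col-0 replicate 1 and 2.99, 2.85 and 2.95 in Col-0 replicates 2 to 4. The gap between replicate 1 and its nearest neighbour made up 0.911 of the range of the group, above Dixon's 95% critical value for 4 libraries. LUX had 1 recovered read in that library and 3 to 4 in the others, so the ratio rests on single reads. Chance alone gives such a gap in about 1 of 20 groups, and 15 groups were examined.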

How the results depend on the processing

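Over 18 alternatives the 7 tested evening genes gave 126 results, of which 125 kept their direction and their side of the threshold and 1, ELF3 with the length trend removed, crossed it. FKF1, ELF4, GI, BOA, PRR5 and TOC1 were called lower in every alternative, with the highest adjusted p when a library was left out at 0.0418 for TOC1 and 0.0415 for PRR5. Leaving out libraries gave 437 to 857 genes lower among all tested (871 as reported) and 426 to 925 higher (940), and removal of the length trend gave 571 lower. The count of other clock genes lower was 0 to 1 without 1 library and 1 with the length trend removed, PRR7 in both. The BOA to LUX ratio turned positive with a pseudocount of 0.1 (0.63) and ranged from -0.83 to 0.063 without 1 library. The highest, 0.063, was without Col-0 replicate 1, and the replicate block gave the same value, since Col-0 replicate 1 has no tt4-11 partner and adds nothing under the block. With the replicate block 6 evening genes were lower, 796 of all genes lower and 869 higher. Deviations of same-numbered libraries correlated at 0.0584, 0.0166 and 0.0644, and those of differently numbered libraries at -0.0958 to 0.104. Such small correlations cannot decide whether same-numbered libraries were handled together. Low read numbers limit LUX, PRR3 and ZTL, whose rate ratios moved between 0.355 and 0.710, 0.982 and 2.94, and 0.630 and 1.22 as single libraries were left out.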

Other observations

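Of 8 known clock output genes, all in the table, 7 were tested. Limma with Benjamini-Hochberg adjustment called 4 of them higher and 3 lower in tt4-11. Of all 13301 genes tested, 7.07% were called higher and 6.55% lower. These output genes were chosen with earlier results of these data known, so their counts are no separate evidence about clock outputs. GRP7, an RNA-binding protein gene that peaks in the evening, had 564, 250, 266 and 169 scaled reads in Col-0 and 58.0, 61.7 and 33.7 in tt4-11. Its Col-0 libraries were widely spread and still all above tt4-11, with a log2 change of -2.49 (SE 0.29). GRP8, its relative, changed by -2.21 (SE 0.40) and CCL by -1.92 (SE 0.13). The genes that rose were COL2 (2.04, SE 0.21) and COL1 (1.21, SE 0.17), relatives of CO that peak around dawn, the chlorophyll-binding protein gene LHCB1.1 (1.46, SE 0.18) and the catalase gene CAT2 (1.26, SE 0.25). The table rows hold 1 of 2 annotated transcripts for GRP7, 1 of 4 for GRP8 and 2 of 3 for CAT2, so their levels need care. GRP8 had 22 recovered reads in all of tt4-11.

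Within Col-0, whose libraries share genotype and growth conditions, the ratio of CCA1 to each of the 7 tested evening genes was highest in replicate 3 for 7 of 7 genes and lowest in replicate 1 for 6 of 7. For FKF1 the ratio was 0.471, 0.569, 0.836 and 0.667 in Col-0 replicates 1 to 4. All 7 ratios share the CCA1 reads of a library, which were lowest in replicate 1 and highest in replicate 3. The sources used here give no harvest time for single samples, and the cause of this order was not tested.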
